A study of Homo sapiens with 4 samples.

Results

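Translation initiation factor genes were examined for peaks of PPARα and of PML/RARA in NB4 cells. The members were all protein-coding RefSeq genes on chromosomes 1 to 22 whose symbol is EIF followed by a digit. This gave 53 genes of 19126 (0.277%). NB4 is a human acute promyelocytic leukemia cell line that carries the PML/RARA fusion. The assay was CUT&Tag, in which an antibody directs a transposase to chromatin and the released fragments are sequenced. The series labels 4 NB4 libraries, 1 with an antibody against PPARα and 1 with an antibody against PML/RARA, both given as treatment, and 1 IgG control library named for each. No agent, dose or time is given, and the values below come from the 2 deposited peak lists, 9829 peaks for PPARα and 46021 for PML/RARA. There was 1 list per antibody and no replicate, so no difference below has a replicate check and no p-value is given. Read depth is unknown, no IgG values were used here, and a gene without a peak is a gene where none was listed. The sources used here do not say which part of PML/RARA the antibody recognises.

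Initiation factors bring the initiator tRNA, the mRNA and the ribosomal subunits together at the start codon. eIF2 carries the initiator tRNA with GTP and eIF2B recharges it, while kinases that phosphorylate eIF2 alpha block that recharging in the integrated stress response. eIF3 is the scaffold on the small ribosomal subunit, the eIF4 factors bind the mRNA cap and unwind the leader, and eIF5 and eIF5B act at start codon recognition and subunit joining. PPARα is a nuclear receptor for fatty acids, and PML/RARA is the fusion oncoprotein of promyelocytic leukemia.

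A gene was counted as carrying a peak when a listed peak shared at least 1 base with the window of 1 kb on each side of either annotated gene end. PPARα peaks lay at 37 of the 53 members (69.8%), against 32.9% of all protein-coding genes. PML/RARA peaks lay at 47 of 53 (88.7%), against 58.8% of all. No member had PPARα at its ends without PML/RARA, so 37 carried both (all genes 32.5%), 10 carried PML/RARA alone (all genes 26.4%) and 0 carried PPARα alone (all genes 0.376%). A further 2 members, EIF4E3 and EIF4ENIF1, had peaks inside the gene but not at an end (all genes 12.0%), and 4 had no peak of either list (all genes 28.8%). Where PML/RARA marked an end, PPARα was present at 78.7% of 47 members and at 55.2% of 11255 genes. This share rose with the strength of the PML/RARA peak. In the top 25% of these 11255 genes by PML/RARA −log10 q it was 16 of 19 for members (84.2%) and 81.0% for all genes. In the lowest 25% of the 11255 it was 1 of 3 for members and 20.4% for all genes. These shares describe the lists. They were not tested, because the genes were chosen as a family with results of these data known.

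**Figure D1:**
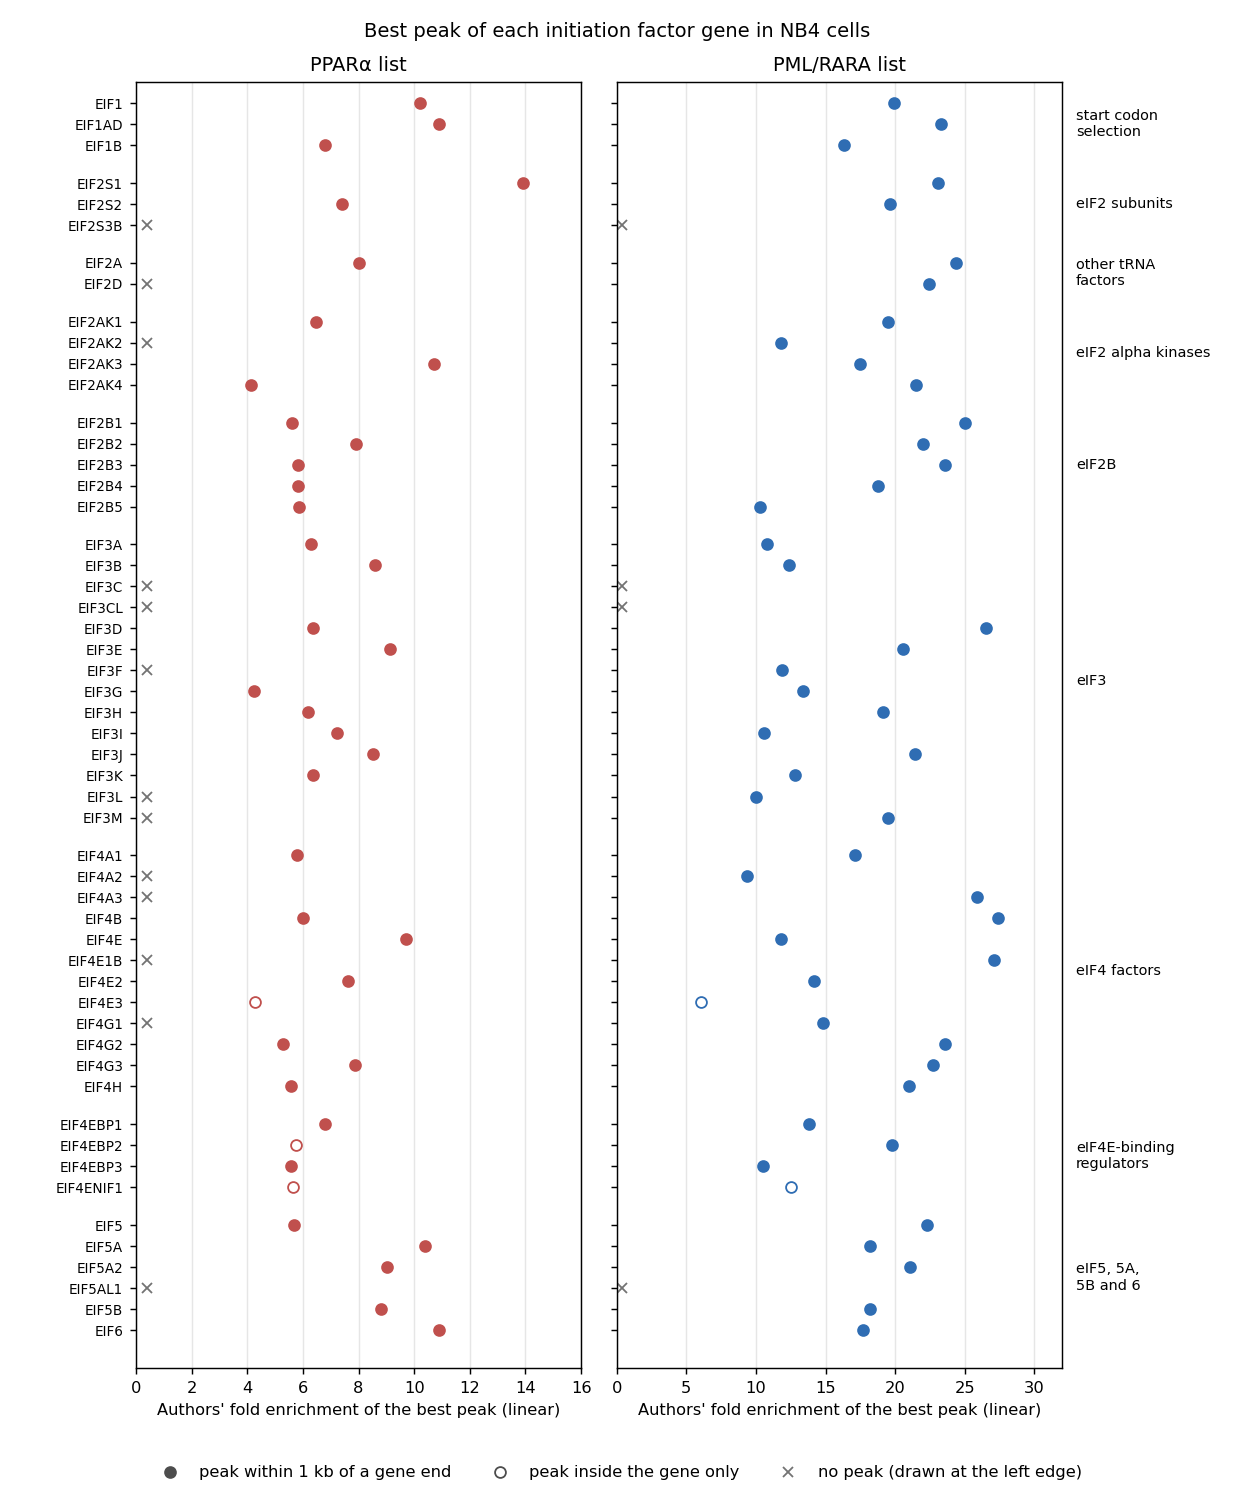
Best peak of each of the 53 initiation factor genes, with the PPARα list on the left and the PML/RARA list on the right. The horizontal axes give the authors' fold enrichment on a linear scale that is separate for each list, filled points are peaks within 1 kb of a gene end, open points are peaks inside the gene only and crosses are genes without a peak. EIF2S1 has the highest PPARα fold (13.9), and EIF4B the highest PML/RARA fold (27.4).

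The members' PPARα peaks were close in strength to those of other genes, and their PML/RARA peaks ranked higher. Fold enrichment is the authors' linear ratio of peak signal over background, and the −log10 q is their significance score. Both serve here to rank peaks within a list only, and where a gene had several end peaks the highest −log10 q is used. The median PPARα fold was 6.80 over the 37 members with an end peak and 7.07 over all 6283 such genes, with a median −log10 q of 7.92 and 8.24. The PPARα folds ran from 4.13 at EIF2AK4 to 13.9 at EIF2S1. For PML/RARA the median fold was 19.5 over 47 members and 14.2 over 11255 genes, with a median −log10 q of 68.5 and 43.3. The PML/RARA folds ran from 9.37 at EIF4A2 to 27.4 at EIF4B. By −log10 q, 39 of the 47 PML/RARA peaks (83.0%) stood in the top 25% of their list, where 58.5% of all genes' best peaks stood. For PPARα, 11 of 37 (29.7%) stood in the top 25%, against 35.3% of all genes.

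**Figure D2:**
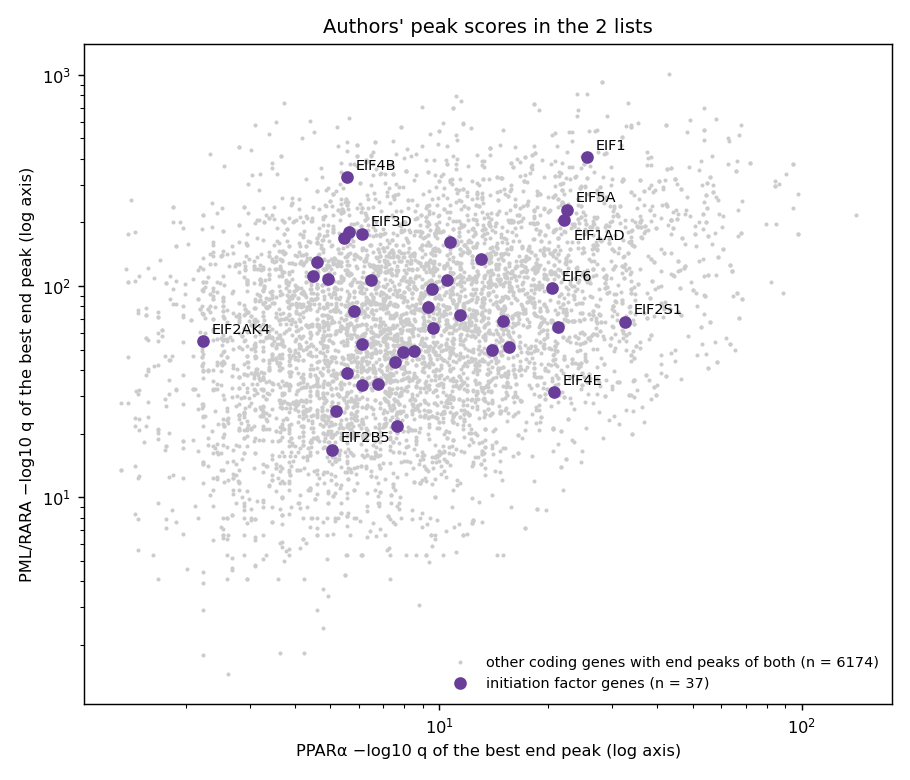
Authors' −log10 q of the best end peak in the PPARα list (horizontal) and in the PML/RARA list (vertical), both on log axes, for genes with end peaks of both. Purple points are the 37 initiation factor genes and grey points the other coding genes, and EIF1 stands high on both axes with 25.5 and 408.

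RefSeq promoters that overlap the members' 4 strongest PPARα peaks, at EIF2S1, EIF1, EIF5A and EIF1AD, are shown. Those of EIF2S3B and EIF3C, which had no peak of either list, stand beside them. The PPARα summit lies inside the printed run at EIF2S1 only. Each run gives the 250 bases before an annotated start, on the gene's strand, from RefSeq (GRCh38.p14, the assembly of hg38). Capitals mark matches on either strand to AGGTCA (the nuclear receptor core element), CACGTG (the E-box), CCGGAA (the ETS core), GGGCGG (the GC box), CCAAT (the NF-Y box), TATAAA (the TBP box) or AAGATGGC (a YY1-type motif).
EIF2S1: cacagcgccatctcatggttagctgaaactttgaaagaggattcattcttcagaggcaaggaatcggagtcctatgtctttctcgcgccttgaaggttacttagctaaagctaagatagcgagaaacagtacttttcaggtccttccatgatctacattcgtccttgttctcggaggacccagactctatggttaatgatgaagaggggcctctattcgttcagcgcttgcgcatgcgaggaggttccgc
EIF1: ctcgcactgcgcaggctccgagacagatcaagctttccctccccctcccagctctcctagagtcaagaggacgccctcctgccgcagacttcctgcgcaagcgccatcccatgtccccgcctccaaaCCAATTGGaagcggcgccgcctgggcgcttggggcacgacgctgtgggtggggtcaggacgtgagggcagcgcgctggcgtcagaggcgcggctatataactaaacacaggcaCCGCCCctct
EIF5A: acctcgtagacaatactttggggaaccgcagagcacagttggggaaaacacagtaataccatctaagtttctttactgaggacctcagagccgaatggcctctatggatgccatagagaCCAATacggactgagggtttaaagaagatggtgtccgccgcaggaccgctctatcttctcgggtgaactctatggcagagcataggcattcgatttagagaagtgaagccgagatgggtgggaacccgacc
EIF1AD: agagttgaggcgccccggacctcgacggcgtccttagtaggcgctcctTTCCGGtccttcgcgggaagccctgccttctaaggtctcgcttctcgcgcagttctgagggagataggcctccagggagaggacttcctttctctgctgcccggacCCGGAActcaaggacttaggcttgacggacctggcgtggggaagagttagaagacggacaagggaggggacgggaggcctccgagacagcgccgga
EIF2S3B: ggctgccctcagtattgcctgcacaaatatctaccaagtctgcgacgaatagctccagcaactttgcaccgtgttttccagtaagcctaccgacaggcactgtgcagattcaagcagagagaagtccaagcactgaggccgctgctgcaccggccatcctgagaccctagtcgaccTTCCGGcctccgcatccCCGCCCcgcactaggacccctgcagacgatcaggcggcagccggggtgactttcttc
EIF3C: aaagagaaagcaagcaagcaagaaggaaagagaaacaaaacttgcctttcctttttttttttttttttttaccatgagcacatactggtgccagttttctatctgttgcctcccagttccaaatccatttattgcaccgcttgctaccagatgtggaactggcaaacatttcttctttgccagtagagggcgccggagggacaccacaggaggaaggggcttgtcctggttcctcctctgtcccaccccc

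The EIF2S1 run is chr14:67360078-67360327 on the plus strand and holds none of these letters. The EIF1 run, chr17:41688635-41688884 on the plus strand, holds CCAAT on both strands, from base -123 to -116 counted back from the start, and GGGCGG on the reverse strand from -10 to -5. The EIF5A run, chr17:7306752-7307001 on the plus strand, holds CCAAT from -131 to -127. This match lies before the PPARα peak, which begins at base 7306938. The EIF1AD run, chr11:66002158-66002407 on the minus strand, holds CCGGAA in both orientations, and another copy runs across the start from -5 to 1. The EIF2S3B run (chr12:10505640-10505889, plus strand) holds CCGGAA and GGGCGG on the reverse strand, and that of EIF3C (chr16:28688308-28688557, plus strand) holds none.

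The 3 genes grouped here by symbol under start codon selection carried both peaks. EIF1AX, the X-linked eIF1A gene outside the rule, carried PML/RARA alone. EIF1, which keeps the scanning ribosome from starting at a wrong codon, had a PPARα fold of 10.2 (chr17:41688650-41689342, rank 599 of 9829 by −log10 q). Its PML/RARA peak had a fold of 19.9 (−log10 q 408, rank 199 of 46021), which is the highest place of any member in that list. EIF1AD, named for its eIF1A-like domain, had folds of 10.9 (chr11:66001805-66002747) and 23.3, and the same PPARα peak lies in the end window of the divergent neighbour BANF1. EIF1B, a close relative of EIF1, had folds of 6.80 and 16.3. All 3 genes thus carried PPARα, with folds at or above the median of the members.

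Of the eIF2 subunit genes, EIF2S1 and EIF2S2 carried both peaks and EIF2S3B neither. EIF2S1 encodes eIF2 alpha, the subunit that the stress kinases phosphorylate, and its PPARα peak (chr14:67359759-67360591) was the strongest of the members, at a fold of 13.9 (−log10 q 32.5, rank 340). It covers the EIF2S1 start and also lies in the end window of the divergent ATP6V1D, a proton pump subunit gene. The PML/RARA peak there had a fold of 23.1 and covered chr14:67359764-67360056, and a weaker PML/RARA peak of 5.31 also lay under the PPARα peak. EIF2S2, the eIF2 beta gene, had folds of 7.40 and 19.6, with summits 4 bases apart, the closest pair of the members. EIF2S3B is an autosomal copy of the X-linked eIF2 gamma gene.

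The remaining initiator tRNA factors differed from each other. EIF2A had both peaks (8.03 and 24.4) in a window shared with SERP1, which encodes an endoplasmic reticulum membrane protein. EIF2D, which can deliver tRNA to the ribosome without eIF2, had a PML/RARA fold of 22.4 at its start, a weaker peak of 11 at its finish and 3 PML/RARA peaks inside. None of these 5 peaks overlapped a PPARα peak.

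All 4 eIF2 alpha kinase genes carried PML/RARA at an end and 3 of 4 carried PPARα. EIF2AK3 encodes PERK, the kinase of endoplasmic reticulum stress, and had folds of 10.7 for PPARα (chr2:88627345-88628220) and 17.5 for PML/RARA. EIF2AK1 encodes HRI, the heme-regulated kinase, with folds of 6.48 and 19.5. EIF2AK4 encodes GCN2, the sensor of amino acid shortage, and had the lowest PPARα fold of the members (4.13, −log10 q 2.22, rank 9162) beside a PML/RARA fold of 21.5. EIF2AK2 encodes PKR, the kinase activated by double-stranded RNA, and had only a PML/RARA peak (11.8). The PPARα folds of the kinase genes thus ran from the lowest of the family up to 10.7.

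All 5 eIF2B genes carried peaks of both lists, and the PPARα folds of 4 of them lay below the members' median of 6.80. The PPARα folds were 5.61 at EIF2B1, 7.91 at EIF2B2, 5.81 at EIF2B3, 5.84 at EIF2B4 and 5.87 at EIF2B5. The PML/RARA folds were 25, 22, 23.6, 18.8 and 10.3 in the same order. EIF2B5, the catalytic subunit gene, thus had the lowest PML/RARA fold of the complex but no lower PPARα fold. With PPARα peaks of −log10 q of at least 5 only, 3 of 5 remained counted (all genes 24.3%). EIF2B1 (4.59) and EIF2B3 (4.93) fell just below.

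Of the 14 eIF3 genes, 9 carried PPARα (64.3%) and 12 carried PML/RARA (85.7%). The PPARα folds were 9.14 at EIF3E, 8.60 at EIF3B (chr7:2354062-2354842), 8.52 at EIF3J and 7.21 at EIF3I, and then 6.38 at both EIF3D and EIF3K, 6.30 at EIF3A, 6.20 at EIF3H and 4.25 at EIF3G. EIF3A and EIF3B encode core scaffold subunits, and EIF3J encodes the loosely bound subunit. The PML/RARA folds did not follow this order: EIF3D had the highest of the complex (26.5) and EIF3I (10.6), EIF3A (10.8) and EIF3B (12.4) were among the lowest. EIF3D encodes a subunit with cap-binding activity of its own. EIF3F (11.9), EIF3L (9.98) and EIF3M (19.5) carried PML/RARA alone. EIF3C and EIF3CL, near-identical copies on chromosome 16, had no peak at an end or inside. Without the eIF3 genes that have another coding gene's end in their window, 3 of 7 carried PPARα (42.9%). The share over all genes without such a neighbour was 25.7%. EIF3C and EIF3CL are among these 7. When only the 9829 PML/RARA peaks of highest −log10 q were kept, 7 of 14 carried one.

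The eIF4 factors carried PML/RARA at 11 of 12 genes (91.7%) and PPARα at 7 of 12 (58.3%). EIF4E, the cap-binding protein gene, had the strongest PPARα peak of this group and the widest of the family (fold 9.72, 1612 bases, chr4:98928326-98929937), with a PML/RARA fold of 11.8. EIF4G3 (7.87 and 22.7) and EIF4G2 (5.27 and 23.6) encode relatives of the scaffold eIF4G, and EIF4E2 (7.61 and 14.2) encodes a cap-binding relative. EIF4B (6.01 and 27.4) and EIF4H (5.58 and 21.0) encode helpers of the helicase eIF4A. EIF4A1, the main helicase gene, had a PPARα peak of 4.09 at its start, where the window is shared with the coding gene SENP3. A stronger one of 5.80 lay at its finish, where the window is shared with CD68, a macrophage marker gene. The strongest PML/RARA peaks of EIF4A1 had folds of 17.1 at the start and 10.8 at the finish.

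PML/RARA was present without PPARα at EIF4A2, EIF4A3, EIF4E1B and EIF4G1. EIF4A3 encodes the helicase of the exon junction complex and had a PML/RARA fold of 25.9 at rank 220 of its list (−log10 q 394, second among members by that score), with no PPARα peak. EIF4G1, the main scaffold gene, had a PML/RARA fold of 14.8 at its start. EIF4A2 had 3 PML/RARA peaks around its start, with folds of 6.98, 7.46 and 9.37. EIF4E1B had its only end peak (27.1) beyond its finish, 729 bases past the end and in the window of TSPAN17. EIF4E3, a cap-binding relative, had a PPARα peak inside the gene, chr3:71681452-71681763 with a fold of 4.29, which was the only PPARα peak of the 43 at or in members that overlapped no PML/RARA peak. The 2 PML/RARA peaks of EIF4E3 (5.74 and 6.08) lay elsewhere in the gene.

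Of the regulators that bind eIF4E, 2 of 4 carried PPARα at an end and 3 of 4 carried PML/RARA. EIF4EBP1, the repressor that mTORC1 switches off, had folds of 6.80 and 13.8, and EIF4EBP3 had 5.59 and 10.5. EIF4EBP2 had a PML/RARA peak of 19.8 at its start, and its PPARα peak (fold 5.75) had its summit 1546 bases downstream of the start, outside the window, over a second PML/RARA peak of 15.8. EIF4ENIF1 encodes the transporter of eIF4E into the nucleus. Its PPARα peak (5.64) and PML/RARA peaks (12.5 and 11.2) lay inside the gene span, and a RefSeq start is annotated within 1 kb of them. Windows of 5000 bases put PPARα at 4 of 4 of these genes, and at 39.3% of all genes.

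The joining and late factors carried both peaks at 5 of 6 genes. EIF5A encodes the hypusine-modified factor that relieves stalled ribosomes, and had folds of 10.4 (chr17:7306938-7307936) and 18.2. EIF5A2, its second gene, had 9.01 and 21.1. EIF5, the GTPase activator of eIF2, had 5.69 and 22.3. EIF5B, the subunit-joining GTPase, had 8.82 for PPARα at its start, and its highest-scoring PML/RARA peak (18.2) lay at base -909 from the start, next to a PML/RARA peak of 13.2 at the start. EIF6, which keeps the large subunit from joining early, had a PPARα fold of 10.9 and a PML/RARA fold of 17.7, both beyond its finish (chr20:35277659-35278726 for PPARα) and in the window of MMP24OS. At its own start EIF6 had only PML/RARA (10.8). EIF5AL1, an autosomal copy of EIF5A, had no peak.

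**Figure D3:**
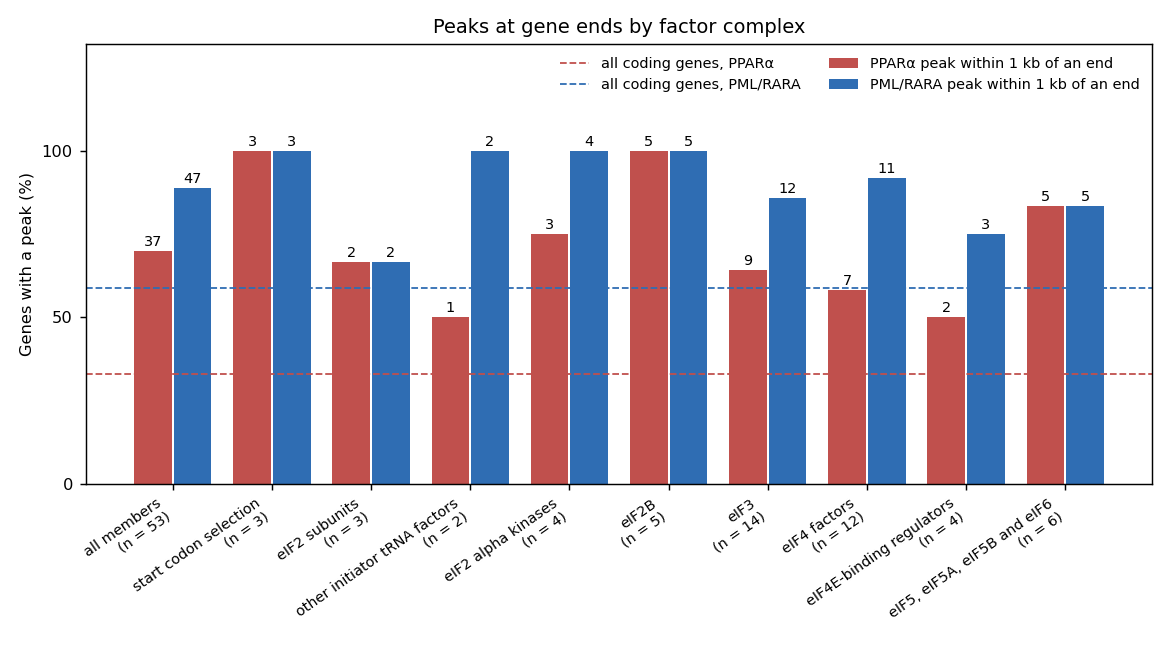
Percentage of genes with a PPARα (red) or PML/RARA (blue) peak within 1 kb of an end, for all members and for each group, with the number of genes above each bar. Dashed lines give the share over all protein-coding genes, 32.9% and 58.8%, and the eIF2B bars reach 5 of 5 in both lists.

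The 4 members with no peak, EIF2S3B, EIF3C, EIF3CL and EIF5AL1, each have a near-identical relative elsewhere in the genome. EIF5A, the relative of EIF5AL1, and EIF2S3, the relative of EIF2S3B, carried both peaks. EIF3C and EIF3CL are copies of each other. Short reads from such copies can be hard to place, and the sources used here do not say how such reads were treated. The part of read placement in these missing peaks was not tested.

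Some members share their windows with other genes. Another coding gene had an end within the windows of 24 of 53 members (45.3%) and of 29.0% of all coding genes, and peaks were more frequent at such genes in general. The PPARα share was 18 of 24 for members with such a neighbour (75.0%, all such genes 50.4%) and 19 of 29 for members without (65.5%, all such genes 25.7%). The PML/RARA shares were 23 of 24 (95.8%, all such genes 80.3%) and 24 of 29 (82.8%, all such genes 50.1%). At 11 of the 37 members the PPARα peak itself lay in the neighbour's window too, a count not made over all genes. Examples are EIF1AD with BANF1, EIF2S1 with ATP6V1D, EIF2A with SERP1 and EIF2B4 with SNX17. Such a peak cannot be assigned to a single gene.

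Overlap between the lists was nearly complete at these genes. All 40 PPARα end peaks of the members touched a PML/RARA peak by 1 base or more, as did 97.6% of the 5247 end peaks of all genes. In the other direction, 45 of the 67 PML/RARA end peaks of members (67.2%) overlapped PPARα, against 44.8% of 12595. The highest-scoring peaks of both lists overlapped each other at 35 of the 37 members, and at 5895 of 6211 genes with both. The exceptions were EIF4A1 and EIF5B, where the strongest peaks of the lists were different ones. Over the 35 pairs the summits lay a median of 182 bases apart (all genes 180), from 4 bases at EIF2S2 to 745 bases at EIF3K.

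The strand is known from the promoter table for 44 of 53 members, and there most peaks lay at the start of the gene. Of members with a strand and an end peak, 29 of 30 had a PPARα peak at the start (96.7%, all genes 96.2%) and 38 of 39 a PML/RARA peak (97.4%, all genes 95.0%). EIF6 for PPARα and EIF4E1B for PML/RARA were the exceptions. PML/RARA peaks were also found at the finish of 7 of the 39 (17.9%, all genes 18.3%).

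Summits of the lists took different places around the start. Measured from the nearest annotated start, the best PML/RARA summit lay upstream in most members, at a median of -83.0 bases (quartiles -150 and -51.0, n = 37), and 4 of 37 (10.8%) lay downstream. PPARα summits lay on both sides, with quartiles of -259 and 131 bases (n = 28), and 15 of 28 (53.6%) lay downstream. Measured from the gene's outermost start instead, 7 of 37 PML/RARA summits (18.9%) and 18 of 28 PPARα summits (64.3%) lay downstream, against 33.3% and 54.4% over all genes. Within 100 bases of a start there were 6 of 28 PPARα summits (21.4%) and 18 of 37 PML/RARA summits (48.6%). At EIF1, for example, the PPARα summit lay at 75 and the PML/RARA summit at -142 bases, and at EIF4E they lay at 269 and -60. At 13 of the 28 members with both, the PPARα summit was downstream of the start and the PML/RARA summit upstream (46.4%, all genes 32.2%). The same arrangement was present over all coding genes, where 24.6% of PPARα and 48.6% of PML/RARA summits lay within 100 bases. The shares downstream were 47.9% and 24.8%. The lists were made with different peak widths (median 503 and 241 bases), and their part in this difference was not tested.

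**Figure D4:**
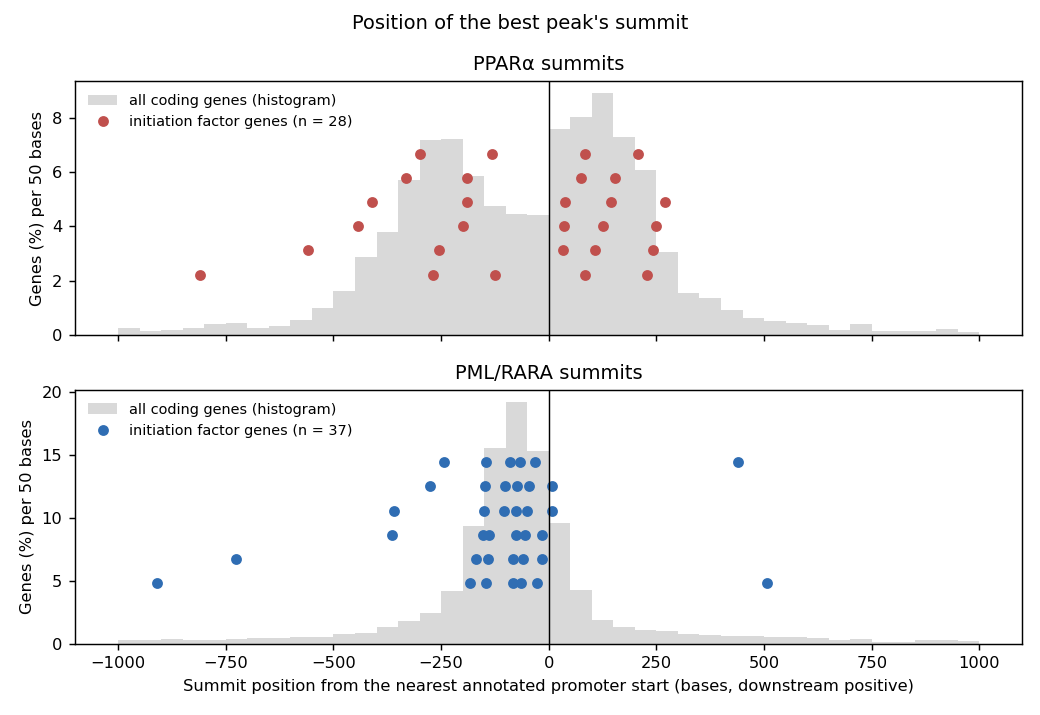
Position of the best peak's summit from the nearest annotated promoter start, in bases with downstream positive, for PPARα (top) and PML/RARA (bottom). Coloured points are initiation factor genes, spread vertically only for visibility, and grey histograms give all coding genes in percent per 50 bases. PPARα summits lie on both sides of the start, and PML/RARA summits gather just upstream.

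Inside the genes, away from the ends, peaks were few. PPARα had 3 peaks inside 3 members, EIF4E3, EIF4EBP2 and EIF4ENIF1 (5.66% of members, all genes 10.7%). PML/RARA had 23 peaks inside 13 members (24.5%, all genes 37.3%). The longest run was in EIF4G3, with 4 PML/RARA peaks of fold 5.0 to 8.57, followed by 3 each in EIF2D and EIF3B. In EIF2D the strongest internal peak (fold 20.0, −log10 q 79.2) scored above the peak at the start (77.1). The median length was 22741 bases for members and 24476 for all coding genes.

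The promoters of the members were rich in CpG and poor in the nuclear receptor element. RefSeq promoters of 300 bases, 250 before and 50 after the outermost listed start, were available for 44 members and 15101 coding genes. Their median GC content was 64.7% for members and 62.7% for all genes, and the ratio of observed to expected CpG was 0.911 and 0.765. Over genes with a PPARα end peak the CpG ratio was 0.911 for the 30 members and 0.859 for all 5309. AGGTCA, the core element bound by nuclear receptors including PPARα and RARA, was found on either strand in 1 of 44 member promoters (2.27%) and in 11.7% of all promoters. Over all genes it was present in 9.74% of promoters with a PPARα end peak and in 12.8% of those without. The direct repeat AGGTCANAGGTCA, the exact form of the PPAR element, was in 0 of 44 members and in 3 of 15101 promoters, and the repeats with spacers of 2 and 5 bases were in none of either. The letters AGGTCA are a strict form, and a missing match says only that they are not in this window. The single member with a match was EIF3I, on the reverse strand from base -25 to -20, inside peaks of both lists.

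The E-box CACGTG, which MYC, MAX and USF factors bind, was found in 12 of 44 member promoters (27.3%) against 8.71% of all promoters. It was in 8 of the 30 member promoters with a PPARα end peak and in 4 of the 14 without. Over all genes it was in 10.9% with and 7.53% without a PPARα end peak. The 12 members held 15 copies, all before the start, and all 15 lay inside a PML/RARA peak while 6 lay inside a PPARα peak. Over all coding promoters 61.9% of 1484 copies lay inside a PML/RARA peak and 29.3% inside a PPARα peak. The 12 members all had a PML/RARA end peak, whereas the 1484 copies were counted over genes with and without one. No share was counted among genes with such a peak alone. These members were picked out after the motif counts were seen. The copies at 7 of them are shown with 10 bases on each side, 5 of eIF4 factors and 1 each of eIF3 and eIF2B. Capitals mark CACGTG, and each run is on the gene's strand (GRCh38.p14).
EIF4E, distal: acccatcggcCACGTGaccagtcctt
EIF4E, proximal: acatatccgtCACGTGgccagaagct
EIF4G1, distal: ctgtggctgtCACGTGacggggcggg
EIF4G1, proximal: ctgcgccggtCACGTGggggcgccgg
EIF4A3: agttccctttCACGTGacgaagagtg
EIF4B: ccgctataatCACGTGattgcctcat
EIF4H: gccgccgcacCACGTGggctgcagag
EIF3F: agctctagctCACGTGgtgtatattc
EIF2B3: cagagggacaCACGTGtcgaatgctc

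The EIF4E copies begin at -225 and -72 from the start and lie inside peaks of both lists. The EIF4G1 copies begin at -144 and -67 and the EIF4A3 copy at -121, and these lie inside PML/RARA peaks only. The EIF4B copy begins at -22 and the EIF4H copy at -199, both inside peaks of both lists. The EIF3F copy begins at -68 and the EIF2B3 copy at -179, both inside PML/RARA peaks only, although EIF2B3 has a PPARα peak elsewhere in its window.

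The remaining motifs were compared in the same way. CCGGAA was in 19 of 44 member promoters (43.2%, all promoters 23.0%). Over all genes it was in 35.7% of promoters with a PPARα end peak and 16.1% without. Among members it was in 13 of 30 with a PPARα end peak and 6 of 14 without. GGGCGG was in 32 of 44 (72.7%, all promoters 58.7%), with 72.1% over all genes with a PPARα end peak and 51.4% without. The members' counts for GGGCGG were 22 of 30 with and 10 of 14 without. CCAAT was in 19 of 44 (43.2%, all promoters 36.1%). TATAAA was in 2 of 44, EIF4A2 and EIF4EBP3 (4.55%, all promoters 9.83%), and AAGATGGC in 3 of 44, EIF2B5, EIF3F and EIF4E (6.82%, all promoters 3.87%).

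**Figure D5:**
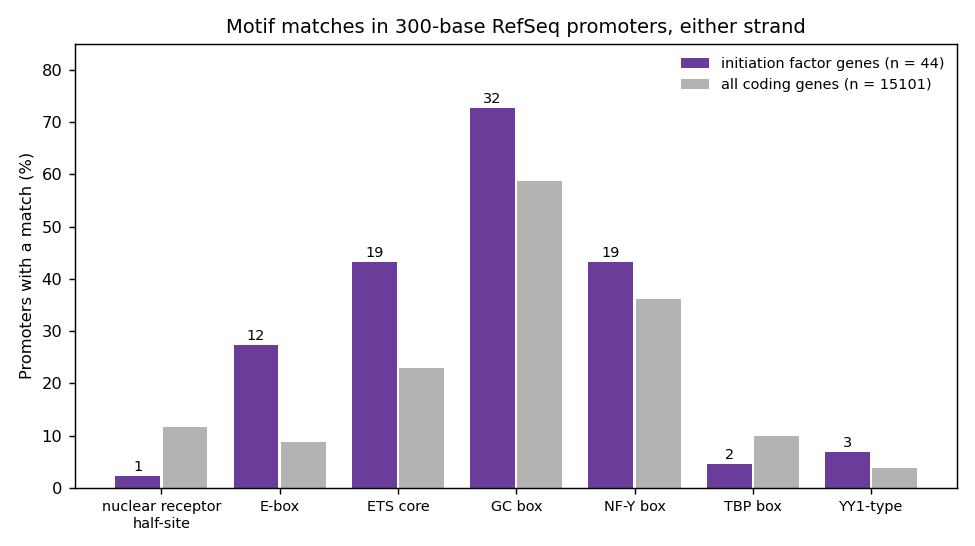
Percentage of 300-base RefSeq promoters with a match on either strand, for 44 initiation factor genes (purple, number of genes above the bar) and all 15101 coding genes (grey). The E-box was in 27.3% of member promoters and 8.71% of all, and the nuclear receptor element in 2.27% and 11.7%. The NF-Y box is CCAAT, the TBP box TATAAA and the YY1-type motif AAGATGGC.

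Other genes of translation control, in 4 lists of 47 genes chosen for their known roles, were marked at similar shares. PPARα lay at the ends of 33 of 47 (70.2%, all genes 32.9%) and PML/RARA at 45 of 47 (95.7%, all genes 58.8%). All 33 carried both, as did 6211 of the 6283 coding genes with PPARα. Elongation and release factors had PPARα at 10 of 13, with folds of 13.1 at ETF1, the release factor gene, 9.97 at EEF1A1, 8.70 at ABCE1 and 8.20 at EEF1B2. Initiation partners outside the rule had 9 of 12, among them BZW1 (13.3), BZW2 (12.0), PAIP2 (9.83) and PDCD4 (7.79), an inhibitor of eIF4A. Genes of mTORC1 and MNK signalling had 7 of 12, among them AKT1S1 (8.15), RPS6KB1 (8.70), which encodes a kinase of ribosomal protein S6, RHEB (7.81) and RPTOR (8.33). MTOR had PML/RARA alone (29.0). Genes of the integrated stress response had 7 of 10, among them ATF5 (9.75), DDIT3 (6.12) and PPP1R15B (7.09), and PPP1R15A (4.87). ATF4, its main transcription factor gene, had folds of 4.53 and 14.7.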

How the data were processed

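CUT&Tag libraries of NB4 cells were represented by 2 peak lists that the authors deposited in narrowPeak layout, and the build is hg38, as the submitters' processing notes say. MACS 1.4.2, bedtools, Bowtie2 2.2.9 and SAMtools are listed there, with no role or setting. The narrowPeak layout belongs to later MACS versions, so the version that gave the fold and −log10 q is not settled. Controls, duplicate removal and masking are not given in the sources used here. The deposited fold enrichment of each peak is a linear ratio over background, the deposited significance is −log10 of a p-value or q-value, and a deposited whole-number score was not used. The lowest −log10 q was 1.32 for PPARα and 1.30 for PML/RARA.

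From these, peaks were tied to RefSeq genes (GRCh38.p14) on chromosomes 1 to 22 by at least 1 shared base with a window of 1000 bases on each side of either gene end. Remaining peaks in the gene span were counted as inside. Exons and introns were not separated. The deposited lists give no counts, so neither depth nor a count model could be used. The gene assignment was tested on simulated data. Analyses ran in Python 3.11.15 with pandas 2.3.3 and numpy 2.4.6. Members and lists were chosen with earlier results of these data known. All members are accounted for. Coordinates are given for the 8 members with the highest PPARα −log10 q and for PPARα peaks without PML/RARA. Promoters are printed for 4 strongly marked members and 2 without a peak, and E-box windows were chosen after the counts were seen. Up to 4 genes are named per list of other genes, chosen by PPARα −log10 q, and ATF4 and MTOR were added after their values were seen. Other settings changed the threshold, list length, window, end, overlap rule and members counted.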

Additional observations from a re-analysis of the deposited data

How the results depend on the processing

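No paired analysis was possible because each antibody has 1 list and no replicate. Over 10 settings, the number of members with a PPARα end peak ranged from 33 of 53 (−log10 q of at least 5) to 41 of 53 (windows of 5000 bases), where the whole family was counted. The PML/RARA count ranged from 36 (list shortened to 9829 peaks) to 48 of 53 (windows of 5000 bases). Over all genes the PPARα share ran from 24.3% to 39.3% in the same settings as the members' lowest and highest, and the PML/RARA share from 30.9% to 69.4%. The count of both fell to 30 of 53 with the shortened list (56.6%, all genes 22.7%). For counts over the family, 40 values under other settings stayed within 1.5 times of those reported and 3 moved further. Members with peaks inside the gene only were 1 with windows of 5000 bases and 3 of 44 with start ends alone. PPARα peaks that shared a site with PML/RARA fell from 42 to 27 of 43 when summits had to lie within 200 bases. This count was not made over all genes. Among overlapping pairs of best end peaks, summits lay within 200 bases in 62.9% of 35 members and 56.3% of 5895 genes. With any annotated RefSeq start in place of the gene ends, an alternative chosen after seeing the data, 30 of 44 members carried PPARα (68.2%, all genes 35.7%) and 39 of 44 PML/RARA (88.6%, all genes 60.7%). Windows of 5000 bases took in a higher-scoring peak at EIF3L (PML/RARA fold 27.4 in place of 9.98), EIF3A (PML/RARA 13.1 in place of 10.8), EIF2AK4 (PPARα 5.70 in place of 4.13) and EIF3G (PPARα 4.46 in place of 4.25). Depth is unknown for both lists and limits every statement about a missing peak.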

Other observations

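The rule leaves out EIF1AX and EIF2S3, the X-linked genes of eIF1A and eIF2 gamma. EIF2S3 carried both peaks at its ends, with a PPARα fold of 10.5 (−log10 q 18.2) and a PML/RARA fold of 11, whereas its autosomal copy EIF2S3B had none. EIF1AX carried PML/RARA alone, at a fold of 30.8 (−log10 q 125), above the highest PML/RARA fold among the 53 autosomal members.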
